A study of Rattus norvegicus with 12 samples.

Results

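The 3 arrays of rat liver cells kept in 100 µM perfluorooctanoic acid (PFOA, T100) were compared with the 3 arrays of the same cells kept in 50 µM (T50), which are 6 of the 12 arrays of the series. The arrays were taken by their titles, and 22093 genes were compared, each through 1 probe set. TRL1215 is an established line of rat liver epithelial cells, and PFOA is a fluorinated surfactant that persists in the body. The labels give an exposure of 38 weeks, which the treatment protocol words as an upper limit, with weekly passage in William's E medium with 10% serum and fresh PFOA each time. The T50 and T100 cultures differ only in dose in the labels. The control arrays hold passage-matched cells without PFOA and the T10 arrays cells kept in 10 µM, and their values are given where they place a difference. Nothing in the labels tells whether the 3 replicates of a dose were grown apart over the exposure. All p-values therefore measure only the spread between these samples, which may be technical.

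Cells build an extracellular matrix of collagens, elastin and laminins, which they modify with dedicated enzymes and hold through integrins. Smooth muscle α-actin and its partner proteins form contractile stress fibres in activated mesenchymal cells, and claudins seal the tight junctions between epithelial cells. In injured liver, fibrillar collagen and smooth muscle α-actin mark activated stellate cells and myofibroblasts, while cultured epithelial cells can also take up parts of these programmes.

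The values deposited by the authors are log2 values, so that a difference of 1 is a 2-fold difference. The background level of a dose was the 95th percentile of 1153 negative-control probe sets, and a gene counted as above it when its 3-array mean was higher; this level was 5.52 at T50 and 5.65 at T100. This held for 4415 genes at 1 of the doses or both. In the pooled RNA of a culture, fewer cells of a type and less RNA per cell cannot be told apart. The labelled liver origin was set against cell type markers. Of 27 measured hepatocyte markers only Arg1 was above background, Alb and Ttr were not, and 0 of the 27 were called between the doses. Of 11 biliary markers only Cftr was above background, of 21 leukocyte markers only Cd14, and of 18 endothelial markers only Tek. The keratin Krt8 and the mesenchymal filament protein Vim were listed at 1 value each on all 12 arrays, 19.07 and 19.93, so that a change in either could not be seen. Pairs of arrays of 1 dose differed by a root mean square of 0.132 to 0.168 over all genes, and pairs across the doses by 0.171 to 0.216.

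Between the doses, 256 of the 22093 genes (1.16%) were called by limma at an adjusted p under 0.05. Of these, 145 (0.656%) were higher at T100 and 111 (0.502%) were lower, and 38 (0.172%) differed by at least 2-fold, 21 upwards and 17 downwards. Among the 4415 genes above background, 162 (3.67%) were called. Counts of called members of a gene list are read against these shares, and no list was tested as a set. All 256 called genes had 3 T100 arrays on 1 side of the 3 T50 arrays, as did 3496 genes (15.8%) in all. The count of called genes fell to 114 without T100 replicate 3, to 129 without T50 replicate 2, and to 140 without T50 replicate 1 or without T100 replicate 1.

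The split between rises and falls depended on the scaling of the arrays. The 95th percentile over genes averaged 9.57 on the T50 arrays and 9.66 on the T100 arrays. In the deposited values 56.6% of the called genes were higher at T100. After quantile normalization 123 genes were called higher and 235 lower, so that 34.4% were higher. With that percentile as a covariate, 51 were higher and 95 lower. The median difference over all genes was -0.0009 in the deposited values and -0.0035 after quantile normalization. Over the 4415 genes above background it was 0.037 in the deposited values and -0.041 after quantile normalization, so its sign depended on the scaling.

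**Figure D1:**
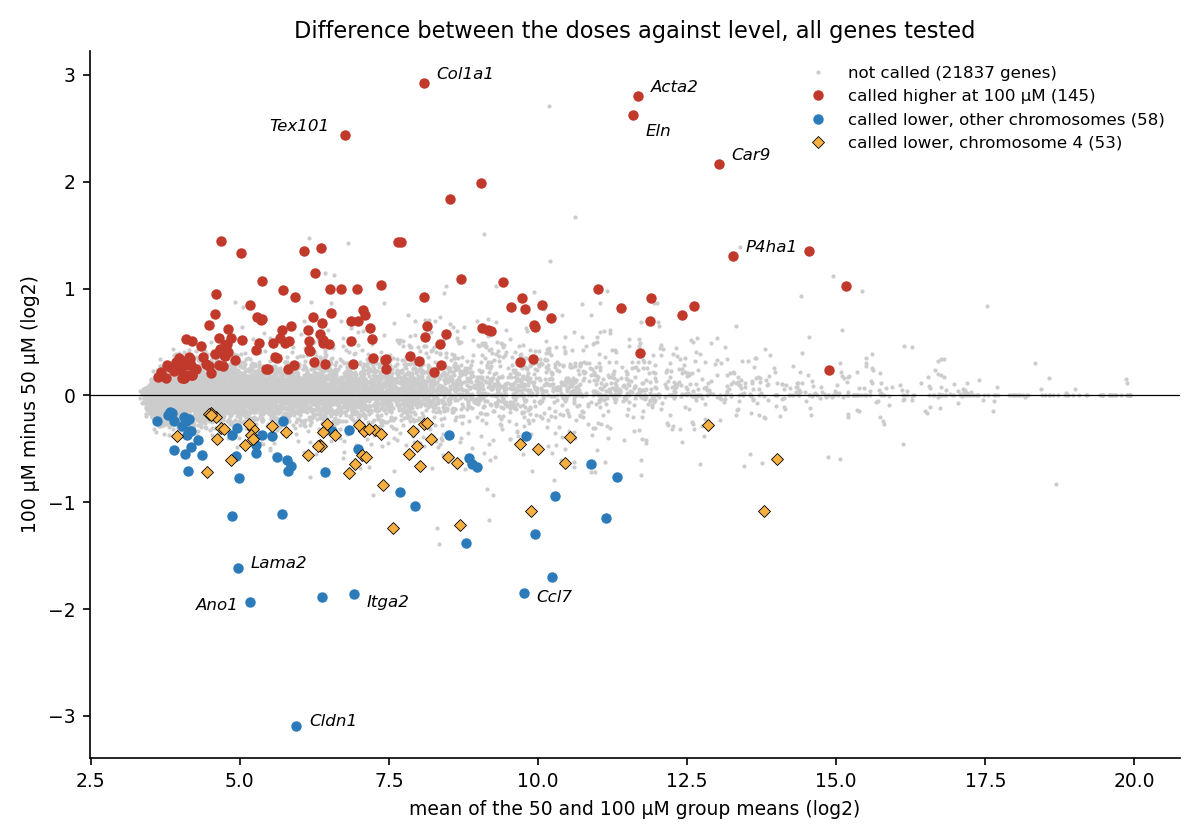
Difference between T100 and T50 (log2, vertical axis) against the mean of both group means (log2, horizontal axis) for each gene tested. Grey points were not called, filled circles were called in limma, and diamonds mark the 53 called falls on chromosome 4, which range from -0.16 to -1.24. Col1a1 (2.93), Acta2 (2.80) and Eln (2.63) lie highest among the called genes and Cldn1 (-3.09) lowest.

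The matrix gene with the largest rise was Col1a1, the α1 chain of type I collagen and the main fibre-forming protein of scars. Its values were 6.53, 6.51 and 6.85 on the T50 arrays and 9.56, 8.97 and 10.14 on the T100 arrays. All T100 arrays lay more than 2 log2 units above the highest T50 array. The difference was 2.93 ± 0.29 (standard error of the fit, n = 3 arrays per dose), or 7.60-fold, with an adjusted p of 0.00198 in limma. The control mean of 7.19 lay on the T50 side: T100 exceeded it by 2.36 (adjusted p 0.00712), while T50 differed from it by -0.56 (adjusted p 0.550). Across all genes 323 (1.46%) were called between T100 and control and 289 (1.31%) between T50 and control; both comparisons use the same control arrays.

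Of 11 fibrillar collagens measured, 1 was called (9.09%, beside 1.16% over all genes), Col1a1, and 4 were above background. Col3a1, the chain of type III collagen, read 9.22, 9.84 and 10.29 at T50 and 11.49, 10.85 and 12.02 at T100. Its groups did not overlap, but the difference of 1.67 ± 0.42 had an adjusted p of 0.119. Col1a2, which pairs with Col1a1 in type I collagen, read 10.40, 10.76 and 10.67 at T50 and 11.29, 10.78 and 12.35 at T100. Its highest T50 array and its lowest T100 array nearly met, and the difference of 0.86 ± 0.41 had an adjusted p of 0.498. Col5a2, a type V chain that joins type I fibrils, differed by 0.73 with an adjusted p of 0.203.

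Among 24 other collagens, 1 was called (4.17%, beside 1.16% over all genes). Col6a1, a chain of the beaded filaments around cells, read 5.82, 5.88 and 5.84 at T50 and 6.47, 6.21 and 6.70 at T100. Its rise of 0.61 ± 0.12 had an adjusted p of 0.0485 and kept its call only without T100 replicate 2, rising to 0.142 without T50 replicate 1. Col8a1, a short-chain collagen of vessel walls, went the other way at -0.71 ± 0.16, with an adjusted p of 0.0792. Col12a1, which coats type I fibrils, differed by 0.51 ± 0.27 with an adjusted p of 0.558.

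Elastin, the rubber-like core of elastic fibres, had the most uneven rise. Eln read 9.85, 10.47 and 10.54 at T50 and 12.58, 12.12 and 14.04 at T100. The groups were apart, but T100 replicate 3 lay more than 1 unit above the next array. The difference was 2.63 ± 0.51, or 6.17-fold, with an adjusted p of 0.0431 in limma. The call was kept without T100 replicate 2 and lost without any other single array, the adjusted p reaching 0.142 without T50 replicate 1. With the 95th percentile as a covariate the difference was 1.84 (adjusted p 0.102), and the call was also lost with the replicate numbers as a block (0.0624), without chromosome 4 (0.0534) and with the 6 arrays alone (0.186). The control mean was 9.03, below both doses, and the T10 mean of 11.45 lay above that of T50, so the levels of Eln did not follow the order of dose. Against control only T100 was called in limma, at 3.88 (adjusted p 0.00919). T50 differed from control by 1.25 (adjusted p 0.395) and T10 by 2.42 (adjusted p 0.0692).

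Of 22 elastic fibre genes measured, 1 rose, Eln, and 1 fell, Fbln2, 9.09% called beside 1.16% over all genes. Fibulin-2, encoded by Fbln2, binds elastin, fibronectin and basement membrane proteins. It read 14.25, 14.56 and 14.19 at T50 and 13.33, 12.92 and 13.49 at T100, with no overlap. It fell by 1.08 on the log2 scale with an adjusted p of 0.0371, and that call was lost without any 1 of the 6 arrays, up to 0.128 without T50 replicate 2. Fbn1, the microfibril scaffold, differed by 0.70 ± 0.17 with an adjusted p of 0.105.

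**Figure D2:**
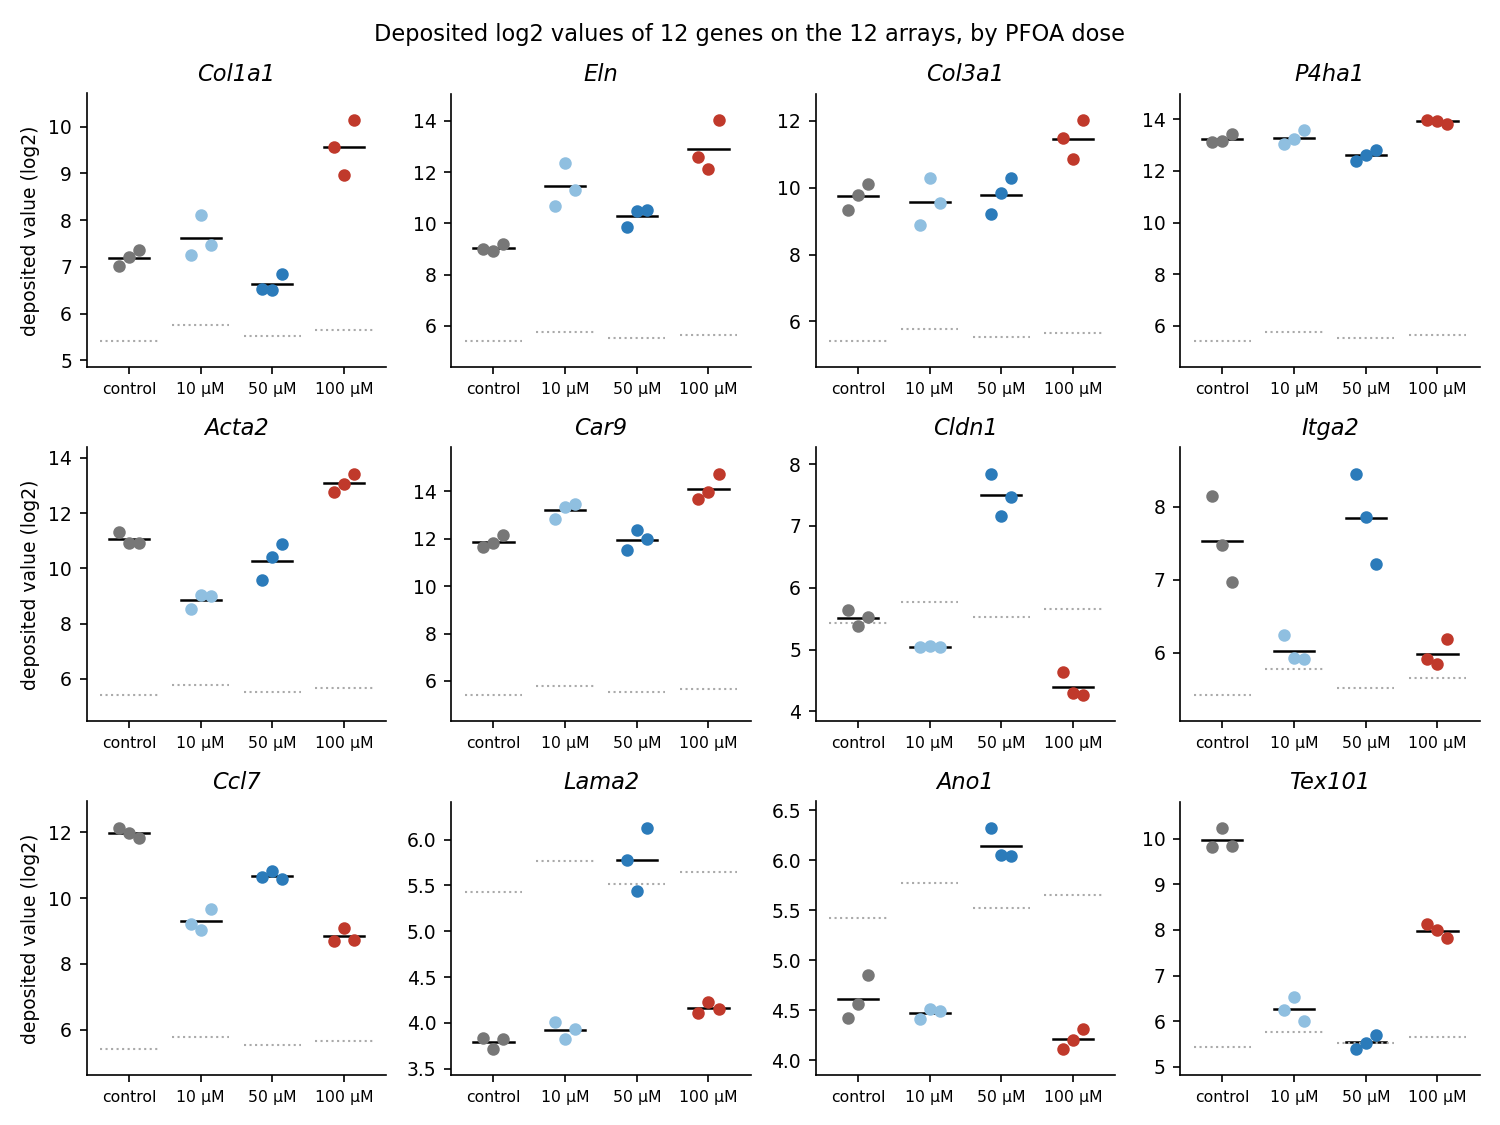
Deposited log2 values of 12 genes on each of the 12 arrays, 3 per dose (points), with group means (black bars) and the background level of each group (dotted lines); each vertical axis has its own range. Col1a1, Acta2, Eln and Car9 are higher on every T100 array than on every T50 array, and Cldn1, Ano1 and Lama2 stand above background at T50 and below it at T100.

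Of 30 enzymes and other proteins that modify the matrix, 3 rose and 1 fell, 13.3% called beside 1.16% over all genes. The median difference over all 30 was 0.04, beside -0.0009 over all genes. Over the 19 of them above background it was 0.22, beside 0.037 over all genes above background. P4ha1, a catalytic subunit of the prolyl 4-hydroxylase that stabilises the collagen helix, read 12.39, 12.64 and 12.82 at T50 and 13.98, 13.95 and 13.83 at T100. The T100 arrays lay close together and about 1 unit above the highest T50 array. Its rise of 1.30 ± 0.15 was 2.47-fold with an adjusted p of 0.00414, and the call held without each array in turn. The control mean of 13.24 lay between the doses, and neither dose was called against it in limma. T50 differed from control by -0.62 (adjusted p 0.0955) and T100 by 0.68 (adjusted p 0.0633). P4ha3, a sister subunit of P4ha1, differed between the doses by 1.26 ± 0.32, with an adjusted p of 0.120.

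Dsel, a homologue of the epimerase that makes dermatan sulfate chains on proteoglycans, read 7.42, 7.70 and 7.68 at T50 and 9.33, 9.43 and 9.57 at T100. Both groups were tight, and the rise of 1.84 ± 0.24 was 3.59-fold with an adjusted p of 0.00688. Sulf2, a sulfatase that trims heparan sulfate outside the cell, rose by 0.69 ± 0.08 with an adjusted p of 0.00414. Its T100 mean of 7.34 was near the control mean of 7.26 and its T50 mean of 6.64 lay below (adjusted p of T50 against control 0.00649). The opposite direction was taken by PCOLCE2, an enhancer of procollagen processing, which read 10.72, 10.46 and 11.09 at T50 and 9.80, 9.92 and 9.73 at T100. It fell by 0.94 on the log2 scale with an adjusted p of 0.0342, a call kept only without T50 replicate 2 among the fits with 1 array left out (up to 0.117 without T100 replicate 3).

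The basement membrane list showed falls and no rise, with 2 of 21 measured genes called (9.52%, beside 1.16% over all genes). Lama2, the laminin α2 chain that is prominent around muscle and nerve, read 5.78, 5.44 and 6.13 at T50 and 4.11, 4.23 and 4.16 at T100. On all 3 T100 arrays it was under background, and at T50 it passed that level on 2 of 3 arrays. Against the background it was at least 1.10-fold lower at T100, and the measured difference of -1.62 ± 0.14 had an adjusted p of 0.000847. Control (3.79) and T10 (3.92) were also under background, so the T50 arrays stood alone. Nid2, a nidogen that links laminin to type IV collagen, read 5.58, 5.57 and 5.51 at T50 and 5.12, 5.21 and 5.22 at T100 (adjusted p 0.00845), all near or under background. Lamb3, the laminin β3 chain, differed by -0.05 with an adjusted p of 0.932, although both doses were below control.

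Over all matrix lists together, 7 of 147 measured genes rose and 4 fell, which is 7.48% called beside 1.16% over all genes; these lists were chosen with earlier results of these data known. The 11 genes were Col1a1, Col6a1, Eln, P4ha1, Dsel, Sulf2 and Postn upwards and Lama2, Nid2, Fbln2 and PCOLCE2 downwards. Postn, the matricellular protein periostin, was called at 3.77 and 4.09, both under background. The count was 6 without T50 replicate 1, T100 replicate 1 or T100 replicate 3, and 7 without T50 replicate 2 or 3. Fibronectin (Fn1), thrombospondin-1 (Thbs1) and biglycan (Bgn) were listed at 19.93, the highest value of the table, at both doses, so a rise in them could not have been seen. Tnc, the matricellular protein tenascin-C, differed by 0.83 ± 0.22 with an adjusted p of 0.143.

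Of proteases and their inhibitors, 1 of 46 measured was called (2.17%, beside 1.16% over all genes). F3, tissue factor, which starts the extrinsic clotting cascade, read 7.68, 8.23 and 8.24 at T50 and 10.50, 9.83 and 9.76 at T100. No arrays overlapped, and the rise of 1.98 ± 0.24 was 3.96-fold with an adjusted p of 0.00516. The metalloproteinase Mmp14 differed by -0.01 and Adam12 by -0.19 ± 0.18, with adjusted p of 0.785 for Adam12.

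**Figure D3:**
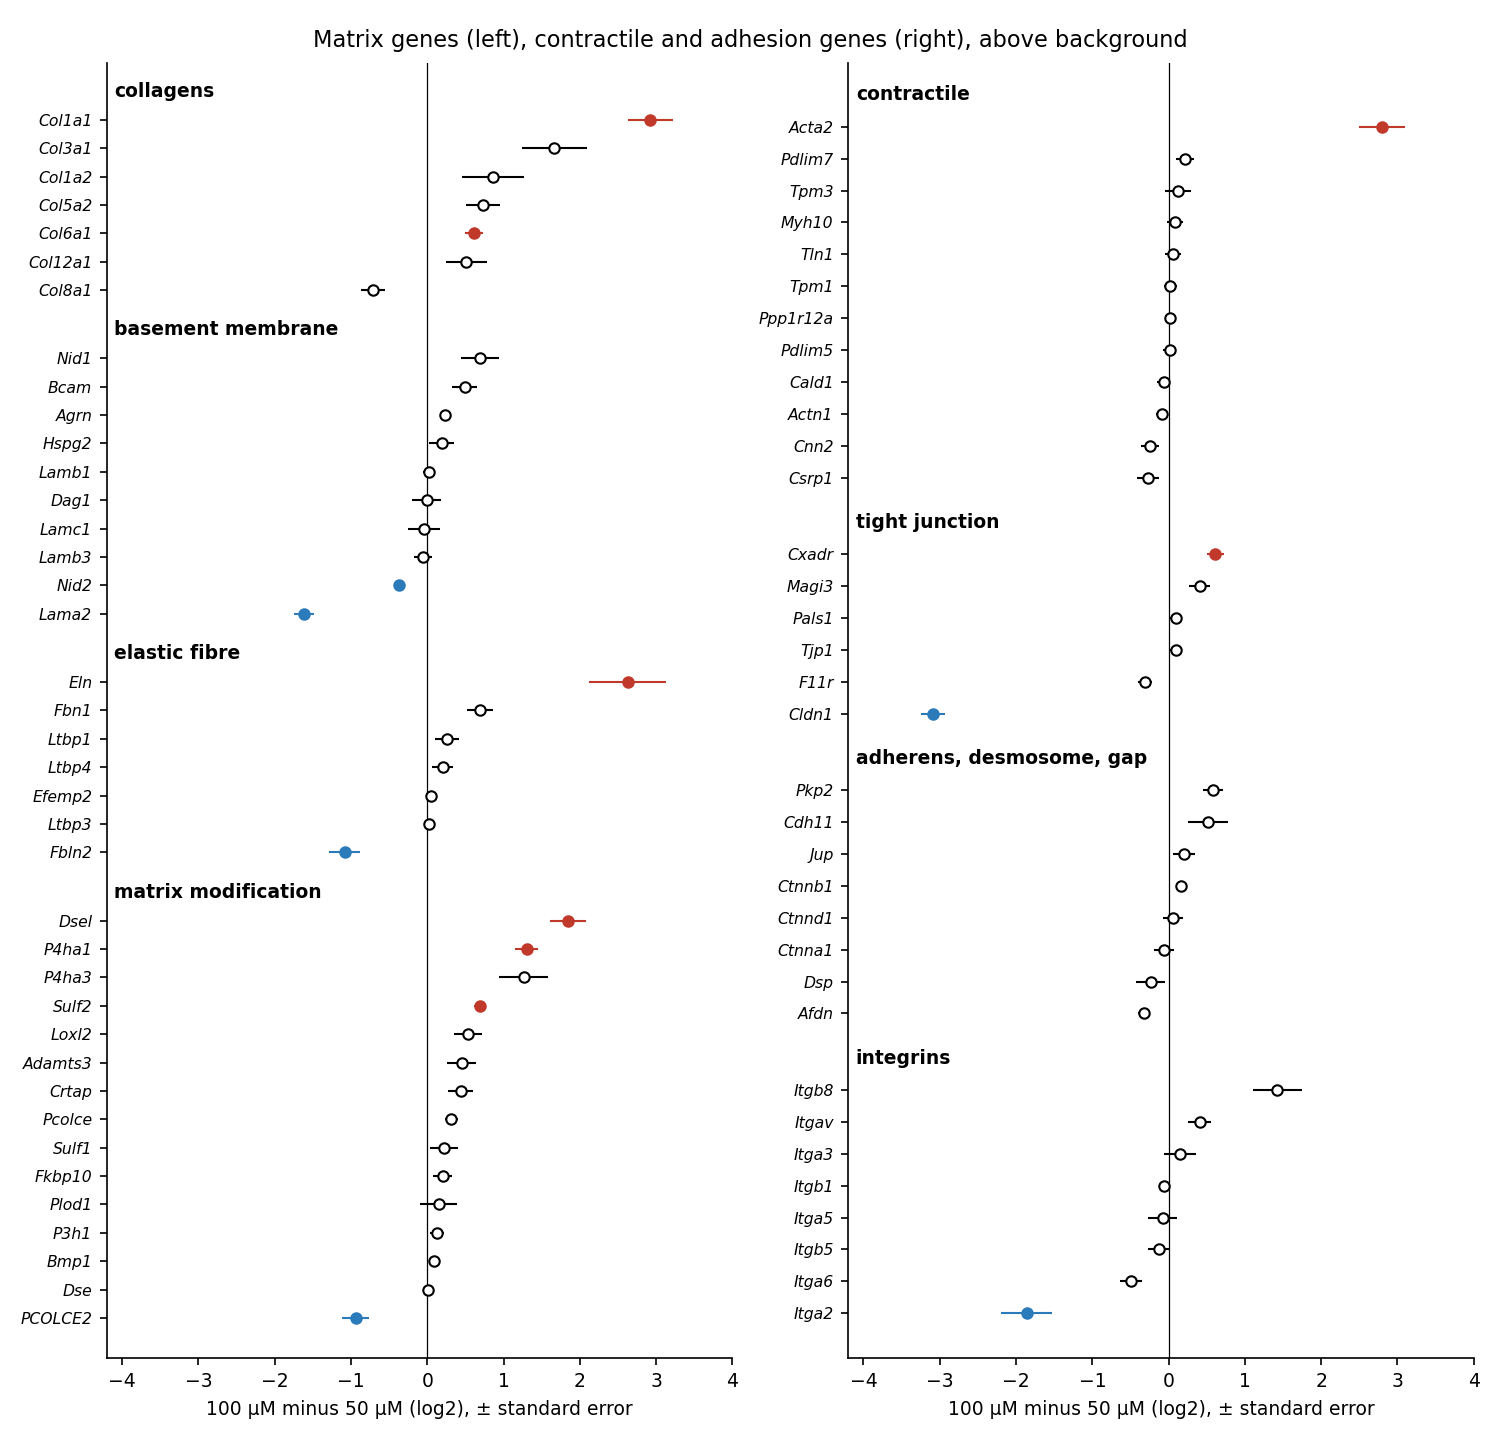
Difference between T100 and T50 (log2, horizontal axis) with its standard error for matrix genes (left) and contractile, junction and integrin genes (right) that were above background at either dose and held no single value on 3 or more arrays. Filled points were called (red higher, blue lower at T100) and open points were not; Acta2 stands at 2.80 while the other contractile genes shown lie between -0.28 and 0.22.

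The contractile list turned on 1 gene. Acta2 encodes smooth muscle α-actin. It read 9.57, 10.39 and 10.88 at T50 and 12.78, 13.06 and 13.42 at T100. Every T100 array exceeded every T50 array by more than 1 unit. The rise of 2.80 ± 0.30 was 6.97-fold with an adjusted p of 0.00346, and it was called without each array in turn. With the 6 arrays alone the call was lost (adjusted p 0.0845). T100 also exceeded the control mean of 11.05 by 2.04 (adjusted p 0.0134), whereas T50 differed from control by -0.76 (adjusted p 0.383) and the T10 mean was lower still at 8.84.

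The promoter of Acta2 carries the letters through which serum response factor and TEAD proteins are known to act on it, and is shown for that reason. It is given from RefSeq on GRCr8, chr1:241172504-241172753, minus strand, as the 250 bases before the start site. Capitals mark both CArG-like matches (CC, 6 bases of which at least 5 are A or T, then GG) and the single MCAT match (GGAATG or its reverse complement).
Acta2: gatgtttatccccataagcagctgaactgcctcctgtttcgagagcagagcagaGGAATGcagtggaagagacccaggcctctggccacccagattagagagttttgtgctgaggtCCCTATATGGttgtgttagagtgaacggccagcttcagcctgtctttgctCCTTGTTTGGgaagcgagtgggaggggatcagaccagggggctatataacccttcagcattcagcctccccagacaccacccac
Of 33469 rat promoter windows of 300 bases, 9.42% hold a CArG-like match and 14.2% an MCAT match on either strand. The window of Tpm2, the other called contractile gene, which fell, held 0 matches of either kind. A match is a description of the letters, and binding was not measured here.

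Most other genes of the smooth muscle programme were under background. Of 48 contractile genes measured, 1 rose and 1 fell, 4.17% beside 1.16% over all genes, and the median difference was 0.01. The list holds 21 genes above background, of which Acta2 alone was called, where 3.67% of all such genes were. Tagln (transgelin) averaged 4.04 and 4.03, Cnn1 (calponin) 3.75 and 3.76, and Myl9 (a myosin light chain) 3.75 and 3.91 at T50 and T100, all under background, with adjusted p of 0.998, 0.980 and 0.645. Tpm1, an α-tropomyosin gene, differed by 0.02 ± 0.09. The fall was in Tpm2, the β-tropomyosin gene, at 5.62, 5.45 and 5.24 at T50 and 4.21, 4.38 and 4.33 at T100. It was above background on 1 T50 array and on no T100 array, its adjusted p was 0.0342, and the call was lost without any 1 of the 6 arrays (up to 0.120 without T50 replicate 1). A second probe set of Tpm2 differed by -0.56 ± 0.04. The contractile count of 2 was 1 in each fit without 1 array, apart from the fit without T100 replicate 2.

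Markers of fibroblastic and stellate cells share genes with the matrix and contractile lists. Of 22 measured, 3 rose (Col1a1, Acta2 and Postn) and 0 fell, 13.6% called beside 1.16% over all genes. The log2 of the summed level of the 22 ran from 12.33 to 12.91 on the T50 arrays and from 13.995 to 14.67 on the T100 arrays. Without the members that also stand in the matrix or contractile lists, 13 remained, of which only Pdpn was above background, and their sums ran from 10.96 to 11.26 and from 11.72 to 12.01. Pdpn itself averaged 10.97 at T50 and 11.77 at T100 and was not called (adjusted p 0.0758 in limma). These sums therefore mostly follow 1 gene that was not called. Defining markers of these cells, among them Pdgfra, Pdgfrb, Des, Dcn, Lum, Lrat and Thy1, were under background at both doses. Of 12 smooth muscle markers only Acta2 was above background. Their part in the results was not tested.

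Cldn1 had the lowest measured difference between the doses. It encodes claudin-1, a sealing protein of epithelial tight junctions. It read 7.84, 7.17 and 7.47 at T50 and 4.64, 4.30 and 4.27 at T100. All T50 arrays were above background and no T100 array was. Taking background as the lower bound, Cldn1 was at least 3.59-fold lower at T100, and the measured difference of -3.09 ± 0.16 had an adjusted p of 7.49e-05. It was the only gene called in opposite directions against control. The control mean was 5.52, which T50 exceeded by 1.98 (adjusted p 0.000551). T100 was called lower than control (adjusted p 0.0110), but with control near background and T100 under it no size can be given to that difference.

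No other claudin was above background, and most junction genes were under background. Of 37 tight junction genes measured, 1 fell (Cldn1) and 1 rose, 5.41% called beside 1.16% over all genes. Cxadr, an adhesion receptor at tight junctions that also binds coxsackievirus, read 8.73, 9.02 and 8.82 at T50 and 9.24, 9.48 and 9.69 at T100, without overlap. Its rise of 0.61 ± 0.11 had an adjusted p of 0.0305 and lost its call without 4 of the 6 arrays (up to 0.102 without T50 replicate 1). The scaffold protein Tjp1 differed by 0.09 and the adhesion molecule F11r by -0.31, with adjusted p of 0.766 and 0.190.

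Adherens junction and desmosome genes gave 0 calls of 37 measured by limma, a count near the 1.16% of all genes, and 7 of the 37 had an unadjusted p under 0.05, as did 2429 of the 22093 genes. The smallest p-values were those of Pkp2, a desmosomal plaque protein that was under background on all T50 arrays (adjusted p 0.0726), and Afdn, the nectin-binding protein afadin (-0.33 ± 0.08, adjusted p 0.0879). Jup, plakoglobin, differed by 0.20 ± 0.15 (adjusted p 0.694). Cdh1 and Cdh2, the E- and N-cadherin genes, stood under background at 3.69 and 3.72 on the T50 arrays and 3.70 and 3.68 on the T100 arrays. Gja1, the only connexin gene above background, held 1 value of 11.10 on all 12 arrays. Over all junction lists 2 of 88 genes were called, 2.27%, and the count was 1 without T50 replicate 1 or 3, or without T100 replicate 2 or 3.

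Integrins, the receptors through which cells hold the matrix, showed 3 falls and no rise among 26 measured, where 0.502% of all genes fell, and 1 of the 3 was above background. Itga2, the α2 subunit of a collagen receptor, read 8.45, 7.86 and 7.22 at T50 and 5.91, 5.84 and 6.19 at T100. The T100 arrays were close together and the T50 arrays spread over more than 1 unit, with an SD of 0.616 beside 0.183 at T100. It fell by 1.86 on the log2 scale, or 3.63-fold, with an adjusted p of 0.0314, and the call was kept only without T50 replicate 3 (up to 0.102 without T100 replicate 1). The control mean of Itga2 was 7.53, and its T10 mean of 6.03 lay close to the T100 mean of 5.98. Itga1 and Itgb4 were also called, at 4.35 and 3.92 on average at T50 and 4.02 and 3.76 at T100, all under background. Itgb8, a subunit of an integrin that activates latent TGF-β, read 5.54, 6.08 and 6.65 at T50 and 8.05, 7.18 and 7.33 at T100; its difference of 1.43 ± 0.32 had an adjusted p of 0.0813.

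TGF-β and activin signalling, a driver of matrix genes in many tissues, had 2 rises and 1 fall among 41 genes. That is 7.32% called, beside 1.16% over all genes. Fst, follistatin, which binds activin, read 11.31, 11.68 and 11.59 at T50 and 12.31, 12.18 and 12.18 at T100. It rose by 0.70 ± 0.08 (adjusted p 0.00424), and both doses stayed under the control mean of 12.78. Tgfb3, a TGF-β ligand, rose by 0.42 ± 0.08 (adjusted p 0.0489) and Acvr2a, an activin receptor, was called lower, above background on 2 T50 arrays and no T100 array (adjusted p 0.0264). The call of Tgfb3 was lost without any 1 array (up to 0.150 without T50 replicate 1) and that of Acvr2a without 4 of 6 (up to 0.0940 without T100 replicate 3). Of 24 YAP and TEAD genes, F3 and Rbms3 were called higher (8.33%, beside 1.16% over all genes), Rbms3 at 4.60 and 5.01 under background. Ccn1 and Ccn2, classical targets, differed by -0.30 and -0.03 with adjusted p of 0.744 and 0.993.

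Hypoxia-inducible and glycolytic genes gave 2 rises and 1 fall of 36 measured, 8.33% called beside 1.16% over all genes. Car9, carbonic anhydrase 9, an acid-regulating membrane enzyme induced by hypoxia-inducible factors, read 11.51, 12.37 and 11.99 at T50 and 13.67, 13.95 and 14.73 at T100. No arrays overlapped, and its rise of 2.16 ± 0.30 was 4.48-fold with an adjusted p of 0.0101. The T10 mean of 13.20 lay above the T50 mean of 11.95 and the control mean of 11.87, so its levels did not follow the order of dose. Ndrg1, another gene known to respond to hypoxia, moved the opposite way from 8.19, 8.38 and 7.85 to 7.14, 7.09 and 7.47, and fell by 0.91 on the log2 scale with an adjusted p of 0.0176. The call of Ndrg1 was lost without 4 of the 6 arrays (up to 0.0716 without T100 replicate 1). The prolyl hydroxylase Egln3 differed by -1.40 ± 0.30 (adjusted p 0.0680), the glucose transporter Slc2a1 by -0.39, and 9 of the 22 members above background held 1 value on 3 or more arrays.

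Both rises carry the core letters of the hypoxia response element near the start site, and the windows are shown for those letters. The promoter of Ndrg1 was not used here, so no comparison of risen with fallen genes is made. They run from 100 bases before the start site to 20 after it, from RefSeq on GRCr8, with the Car9 window at chr5:62558924-62559043 and that of P4ha1 at chr20:27844946-27845065, both plus strand. Capitals mark ACGTG as read on the opposite strand.
Car9: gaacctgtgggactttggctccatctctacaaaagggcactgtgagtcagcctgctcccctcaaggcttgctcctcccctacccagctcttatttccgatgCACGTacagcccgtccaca
P4ha1: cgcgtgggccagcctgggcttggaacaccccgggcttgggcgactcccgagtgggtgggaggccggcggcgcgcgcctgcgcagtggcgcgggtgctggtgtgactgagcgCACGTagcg
These letters are common: 19.3% of the 33469 promoter windows of 300 bases hold them on 1 strand or the other.

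Among inflammatory genes 3 of 47 measured fell and none rose, 6.38% called beside 1.16% over all genes. Ccl7, a chemokine that draws monocytes, read 10.64, 10.84 and 10.59 at T50 and 8.69, 9.09 and 8.72 at T100. Every T100 array lay more than 1 unit under the lowest T50 array. It fell by 1.85 on the log2 scale, or 3.61-fold, with an adjusted p of 0.00114, and T50 itself lay under the control mean of 11.98 by -1.30 (adjusted p 0.00691). The T10 mean of 9.31 lay under that of T50 (10.69), so the levels of Ccl7 did not follow the order of dose. Il24, a cytokine of the IL-10 family, read 6.08, 6.13 and 6.54 at T50 and under background on all T100 arrays. It was at least 1.52-fold lower at T100 (adjusted p of the measured difference 0.00582). Tnfaip3, an inhibitor of NF-κB signalling, was called lower with both doses under background (adjusted p 0.00845).

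Targets of p53 showed 3 rises and no fall among 26 measured, where 0.656% of all genes rose. The median difference over the 26 was 0.14, beside -0.0009 over all genes. Over the 12 of them above background it was 0.57, beside 0.037 over all genes above background. Eda2r, a receptor of the TNF receptor family, read 5.81, 5.73 and 5.47 at T50, above background on 2 of 3 arrays, and 6.89, 6.98 and 7.30 at T100. Its rise of 1.38 ± 0.19 had an adjusted p of 0.0103. The T100 mean of 7.05 was near the control mean of 7.32, and T50 lay under control by -1.65 (adjusted p 0.00452). Fas, the death receptor, was under background on all T50 arrays and above it on 2 of 3 T100 arrays. It was at least 1.13-fold higher at T100 (adjusted p of the measured difference 0.00828). Sulf2, described above, also stands on this list. Mdm2 and Ccng1, other p53 targets, differed by 0.46 and 0.69 with adjusted p of 0.218 and 0.0796. Cdkn1b, a brake on the entry into S phase that is not on this list, also rose, by 0.52 ± 0.07 (adjusted p 0.0102), from a T50 level under control to a T100 level near it.

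Genes of mitosis gave 0 calls of 38 measured by limma, a count near the 1.16% of all genes, and 8 of the 38 had an unadjusted p under 0.05. The smallest p-values were those of Tpx2 (0.31 ± 0.09, adjusted p 0.182) and Prc1 (0.59 ± 0.18, adjusted p 0.199), both spindle proteins. The median difference over the mitosis list was 0.12, beside -0.0009 over all genes. Over its members above background it was 0.13, beside 0.037 over all genes above background. Of 45 replication genes, Cdkn1b was the only call (2.22%, beside 1.16% over all genes). Growth factor genes gave 3 rises and 2 falls of 54 measured, 9.26% called beside 1.16% over all genes. Pdgfc, a platelet-derived growth factor, rose by 1.00 ± 0.11 (adjusted p 0.00325), Igfbp2 rose by 0.77 ± 0.09 (adjusted p 0.00525), and Igfbp4 fell by 1.15 on the log2 scale (adjusted p 0.00386), the last 2 being binding proteins of insulin-like growth factors. Fgf19, known in humans as a gut hormone that restrains bile acid synthesis, read 6.88, 7.20 and 7.91 at T50 and 5.67, 5.49 and 5.16 at T100, above background on 1 T100 array. The T100 mean was under background, so no exact size is given. The control mean of Fgf19 was 8.59, and its T10 mean of 4.92 was under background too. The call had an adjusted p of 0.0221 and was kept only without T50 replicate 1 (up to 0.0867 without T100 replicate 3).

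PPAR-regulated fatty acid genes, through which PFOA is known to act in rodent liver, had 1 rise of 42 measured, the malic enzyme gene Me1 (0.43 ± 0.06, adjusted p 0.0106). That is 2.38% called, beside 1.16% over all genes, against which the shares of the next lists are also given. Sterol synthesis had 1 rise of 24 (4.17%), Sqle, squalene epoxidase (0.53 ± 0.10, adjusted p 0.0469, lost without 5 of 6 arrays and 0.150 without T50 replicate 1). NRF2 and xenobiotic genes had 1 rise of 40 (2.5%), Gclc, the catalytic subunit of glutathione synthesis. Gclc read 9.87, 9.90 and 9.80 at T50 and 10.62, 10.33 and 10.80 at T100 (0.73 ± 0.09, adjusted p 0.00710), and both doses exceeded the control mean of 9.25, with adjusted p of 0.0156 and 0.000512. Stress and amino acid genes had 1 rise of 31 (3.23%), the amino acid transporter Slc7a8, at least 1.62-fold higher at T100 (adjusted p of the measured difference 0.00940). The T10 mean of Slc7a8 was 8.19, above its T100 mean of 6.21, so its levels did not follow the order of dose. Psat1, an enzyme of serine synthesis, differed by 1.39 ± 0.28 with an adjusted p of 0.0551. Interferon genes gave 1 fall of 29 measured, or 3.45% (Oasl, under background), and intermediate filament genes 0 calls of 22. Transcription factors listed for the epithelial-mesenchymal transition gave 1 fall of 22, or 4.55% (Klf4, -0.67 ± 0.13, adjusted p 0.0491, lost without any 1 array and 0.168 without T100 replicate 3). The other 2 above background, Snai2 and Zeb1, differed by -1.24 ± 0.31 and 0.20 ± 0.13 (adjusted p 0.118 and 0.645). No direction of that transition was read from these genes. Of the 18 endothelial markers, Tek, the angiopoietin receptor, fell by 0.72 on the log2 scale (adjusted p 0.0130, up to 0.0580 without T50 replicate 2).

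Other genes with large differences belong to none of these lists. Tex101, a membrane glycoprotein known from germ cells, read 5.40, 5.52 and 5.70 at T50, above background on 1 array, and 8.12, 7.99 and 7.81 at T100. Its rise of 2.44 ± 0.15 was 5.41-fold (adjusted p 0.000209), while the control mean of 9.97 was higher than both doses. Gpc3, a heparan sulfate proteoglycan known as a marker of human liver cancer, rose by 1.44 ± 0.12 from 6.81, 6.97 and 7.19 to 8.57, 8.32 and 8.40 (adjusted p 0.000930). Control averaged 7.02, so T50 differed from it by -0.04 and T100 by 1.40. Vsnl1, a neuronal calcium sensor, rose by 1.44 ± 0.23 (adjusted p 0.0180, up to 0.0628 without T100 replicate 3), and Fzd2, a Wnt receptor, by 1.35 ± 0.26 (adjusted p 0.0441, up to 0.140 without T50 replicate 1). Cyp2s1, a cytochrome P450, was under background at T50 and at least 2.34-fold higher at T100 (adjusted p of the measured difference 0.0342, up to 0.115 without T50 replicate 1).

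Falls outside the lists included Ano1, a calcium-activated chloride channel. It read 6.32, 6.06 and 6.05 at T50 and 4.12, 4.20 and 4.32 at T100, where no array was above background. Ano1 was at least 1.41-fold lower at T100 (adjusted p of the measured difference 0.000126), and control (4.61) and T10 (4.47) were also under background. Vwa5a fell by 1.70 on the log2 scale (adjusted p 0.000821), from 11.20, 11.18 and 10.89 to 9.19, 9.30 and 9.68, with control at 9.96. A second probe set of Vwa5a differed by -1.31 ± 0.11 and another, dim one by -0.06, and the mean of its probe sets by -1.02 (adjusted p 0.00116). Serinc2 (-1.38 ± 0.16, adjusted p 0.00414) and the adhesion molecule Ceacam1 (-1.29 ± 0.16, adjusted p 0.00601) fell as well.

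The falls were concentrated on chromosome 4. The chromosome of each probe set was read from its identifier, and it was the same as in the RefSeq annotation for 98.3% of the 21963 genes found there. Chromosome 4 holds 1276 of the genes tested (5.78%), but 53 of the 111 called falls (47.7%) and 4 of the 145 called rises. No other chromosome held more than 10 called falls. The 53 falls had a median of -0.41 and reached -1.24 in C1r, a protease of the first complement component. They include Cd9, a tetraspanin of the cell surface, at -1.21 ± 0.14 (adjusted p 0.00414), and Fbln2. This pattern was chosen after its values were seen, and no test of it was made.

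The shift extended over the genes of the chromosome, called or not. Of 206 genes of chromosome 4 with a 12-array mean above background and varying values, 165 (80.1%) were lower at T100 than at T50, with a median difference of -0.21. Among 3379 such genes elsewhere, 33.8% were lower, and the medians of the other 20 chromosomes ran from 0.01 to 0.08. Cut into 5 blocks by gene order along chromosome 4, the medians were -0.20, -0.09, -0.28, -0.19 and -0.22. The median was -0.30 after quantile normalization, and ran from -0.18 to -0.25 with 1 array left out.

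Set against control, the T50 arrays lay highest on chromosome 4. The median level of its genes relative to the control mean was 0.28, 0.32 and 0.26 on the T50 arrays, and 0.07, 0.03 and 0.13 on the T100 arrays. On the T10 arrays it was -0.09, 0.03 and -0.01. The other chromosomes ran from -0.20 to -0.14, from -0.08 to -0.01 and from -0.13 to -0.03 on those 3 arrays, so chromosome 4 lay above them at T10 too, by smaller amounts and without exceeding control on each array. Of the 206 genes, 194 (94.2%) were higher at T50 than in control, against 52.0% elsewhere. By limma 75 genes of chromosome 4 were called higher and 3 lower at T50 than in control, of 164 and 125 over all chromosomes. At T100 they were 13 and 2, of 208 and 115. The number of copies of the chromosome was not measured here, and its part in the result was not tested. When the genes of chromosome 4 were left out before the fit, 167 genes were called between the doses, 115 higher and 52 lower, all of them among the 256.

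**Figure D4:**
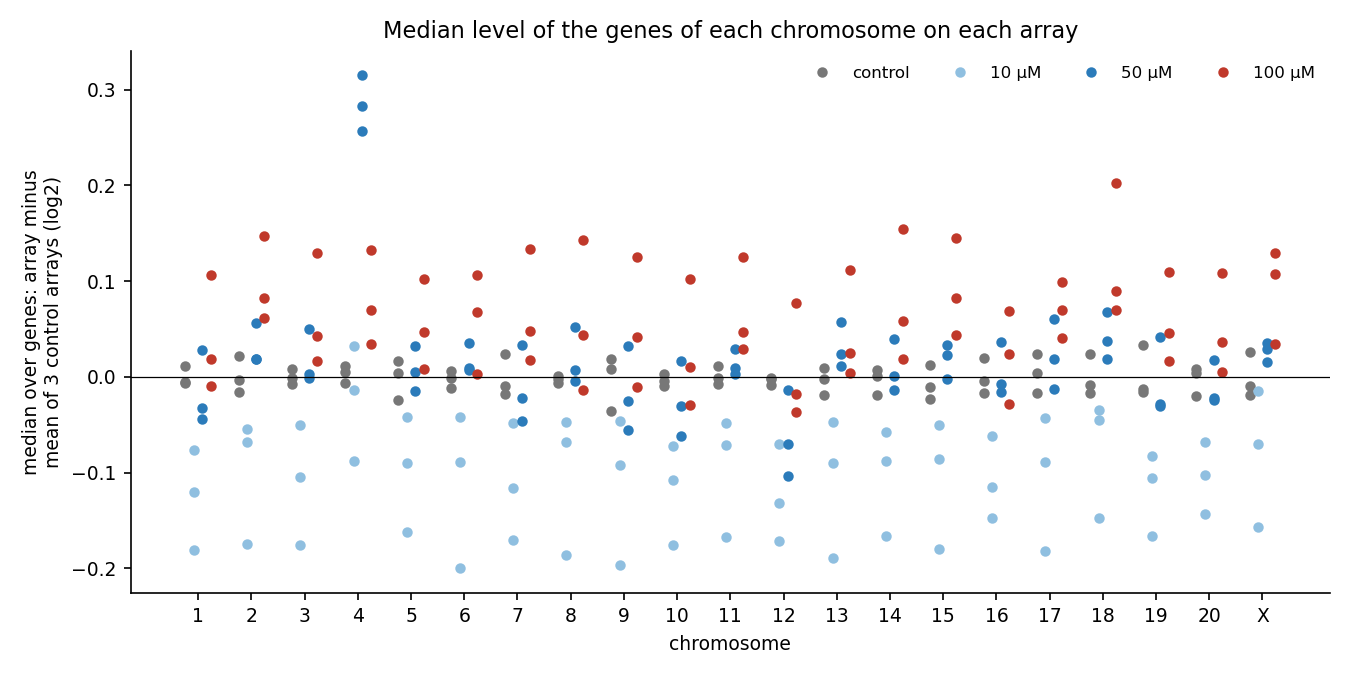
Median over the genes of each chromosome (horizontal axis) of the value on 1 array minus the mean of the 3 control arrays (log2, vertical axis), with 1 point per array and colours for the doses. On chromosome 4 the 3 T50 points lie at 0.26 to 0.32, above the T100 points at 0.03 to 0.13, while on the other chromosomes no T50 point exceeds 0.07.

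Several genes of the matrix and junction groups lie on other chromosomes, and whether their differences are related to the shift of chromosome 4 was not tested. Col1a1 is on chromosome 10, Acta2 on 1, Eln on 12, Cldn1 on 11, Itga2 on 2 and Lama2 on 1. Col1a2 is on chromosome 4, at a difference of 0.86, and so is Cdkn1b, which rose. Of the 147 matrix genes, Fbln2 was the only called one on chromosome 4.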

How the data were processed

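RNA from 12 cultures was measured on Affymetrix rat whole-transcript arrays, from 100 ng of RNA each, per the labels' protocols. The deposited table holds 1 value per probe set and array, between 2.87 and 19.93, and was read as log2 intensity from that range. The background correction, summarization and normalization have no description in the sources used here. Values were used as deposited. Of 70580 probe sets, 23446 have 1 gene symbol, 505 several and 44891 none, and 1738 are controls; the brightest probe set over all arrays stood for each of 22093 genes. Limma 3.58.1 (R 4.3.3) fitted the 4 group means on all 12 arrays (lmFit, eBayes), with Benjamini-Hochberg adjustment over all genes and a threshold of 0.05. Precision is limited by the 3 arrays of each group.

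The members and gene lists were chosen with earlier results of these data known. The genes named are the 12 largest called rises and falls of genes above background in a group, up to 6 called members of each list or, where none was called, the 2 with the smallest p, genes called in opposite directions against control, and a set of genes of interest; genes outside that rule were chosen after their values were seen. A bound ("at least") sets the brighter group mean against the background of the dimmer group. The bound was not tested, and an adjusted p given with it belongs to the measured difference. Of all genes, 160 hold 1 value on all 12 arrays and 852 share 1 value on 3 or more arrays, and of 511 genes with a mean over 12, 368 do so. The replicate numbers of T50 and T100 were checked as pairs: deviations from the group means correlated at 0.05, -0.03 and -0.22 for replicates 1, 2 and 3, so the numbers were not taken as pairs. The list of serum response factor regulators is not reported here. Promoters came from RefSeq (GRCr8). Alternatives were quantile normalization, the 6 arrays alone, the replicate number as a block, a background filter, mean probe sets, trended and robust variances, leaving out genes with repeated values, the array's 95th percentile as a covariate, each array left out, an ordinary 2-group test, and chromosome 4 left out.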

Additional observations from a re-analysis of the deposited data

How the results depend on the processing

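The 256 calls between T100 and T50 became 47 with the 6 arrays alone, 146 with the 95th percentile as a covariate, 167 without chromosome 4 (199 of the 256 lie on other chromosomes), and 0 by the ordinary 2-group test, where 1833 genes had an unadjusted p under 0.05; with 1 array left out they ran from 114 to 186. The 11 matrix genes became 3 with the 6 arrays alone, 7 without chromosome 4 and 7 with the replicate block (6 to 11 with 1 array left out). The 2 contractile genes became 1 with the 6 arrays alone, with the covariate or among genes above background only, and the 2 junction genes 1 with the 6 arrays alone and 4 among genes above background only; both ran from 1 to 2 with 1 array left out. The 38 calls of at least 2-fold became 14 with the 6 arrays alone and ran from 26 to 41 in the other fits counted, which leave out the ordinary test with its 0 calls. The chromosome 4 median of -0.21 became -0.30 after quantile normalization and ran from -0.18 to -0.25 with 1 array left out. With the replicate block, where samples share only a number, 191 genes were called, 113 higher and 78 lower, and 42 of the 55 called genes named kept their call. Of those 55, 53 kept it after quantile normalization, 34 with the covariate, 15 with the 6 arrays alone and 34 to 39 with 1 array left out, and 0 changed direction under any of these. The 40 that lost their call with the 6 arrays alone include Col1a1 (adjusted p 0.0537 in limma), Lama2 (0.0567), Acta2 (0.0845), F3 (0.0845) and Car9 (0.118). Where no reason is given, the cause was not tested. The omission of chromosome 4 and the alternatives to its median were chosen after seeing the data. Genes at 1 repeated value could not show a change, and dim genes give bounds only.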

Other observations

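Genes of chromosome Y were also called between the doses, chosen here after their values were seen. Ddx3y, an RNA helicase gene, averaged 9.65 ± 0.05 (SD, n = 3) at T50 and 10.50 ± 0.11 at T100, a rise of 0.85 ± 0.12 (standard error) with an adjusted p of 0.0111 in limma. Eif2s3y, a translation initiation factor gene, rose by 0.91 ± 0.12 with an adjusted p of 0.00918. Kdm5d and Uty, on the same chromosome, differed by 0.21 and 0.15 with adjusted p of 0.456 and 0.739.

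Other genes called outside the lists, chosen after their values were seen, include Meis1, a homeobox transcription factor (0.99 ± 0.10, adjusted p 0.00292 in limma), Serpinf1, the secreted factor PEDF (1.00 ± 0.14, adjusted p 0.0101), and Tlr5, the flagellin receptor (1.15 ± 0.16, adjusted p 0.00918). All of them were higher at T100.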
